A study of Sus scrofa domesticus with 4 samples.

Results

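KLF4 and KLF6 belong to the Krüppel-like factors, transcription factors with zinc fingers at the C-terminus that bind GC-rich and CACCC elements in promoters. KLF4 is switched on early after many stimuli, restrains the contractile gene programme of vascular smooth muscle in mouse and rat, and is one of the factors used to reprogram somatic cells. KLF6 is induced by tissue injury and acts on genes of growth arrest and TGF-beta signalling. The array carried 7 probes for KLF4 (all to transcript NM_001031782) and 4 for KLF6 (all to NM_001134353), which makes 2 of the 3029 genes named on the array and 11 of its 43603 non-control probes. They were taken as every probe whose accession in the array design is a RefSeq transcript of either gene. The pair was chosen on the log2 ratios of these 4 arrays, so those ratios are given as a description, and nothing is read from a test on them.

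The tissue was myometrium, the muscular wall of the uterus, taken from the middle of the horns of 4 gilts (Large White x Polish Landrace, aged 7 to 8 months) on days 15 to 16 of pregnancy. Explants were preincubated for 2 h and cultured for 24 h with orexin A (OXA), a hypothalamic peptide that is also made in peripheral tissues, or without it, and both groups shared the same medium with serum and albumin. The sample labels give 10 nM OXA and the design text of the series 10 µM, and the data do not settle which was used. Each of 4 Agilent 2-colour arrays paired an OXA-treated with a non-treated extract, and by the sample labels the OXA extract carried Cy5 on arrays 1 and 3 but Cy3 on arrays 2 and 4. No label ties an array to a gilt, so the spread over arrays may be biological or technical. In RNA from whole tissue, fewer cells of a type and less RNA per cell cannot be told apart.

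The labelling protocol, unlike the sample labels, describes OXA in Cy5 throughout. Across 19505 tested probes, which are not independent of each other, the log2 ratios of arrays 2 and 4 correlated at r = -0.38 although both had OXA in Cy3, and array 2 correlated with array 1 at r = -0.59, while arrays 1 and 4 correlated at r = 0.62. Array 3 correlated with arrays 1, 2 and 4 at r = 0.23, -0.30 and -0.06. The direction of array 2 rests on its label and on the authors' log2 values, whose sign follows the labels. The members are also given with array 2 turned and with Cy5 read as OXA throughout. The share of probes well above background was 39.9% in the dimmest channel and 61.1% in the brightest. Of the smooth muscle markers, ACTA2, CNN1 and DES were measured, and all 3 were well above background in both channels of every array.

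KLF6 was detected in every sample. With its brightest probe, A_72_P607553, the processed signal (spot intensity after background subtraction and dye normalization by the scanner software) was 24079.8, 52075, 27701 and 38368 in the OXA channels of arrays 1 to 4, against 21819, 17323, 21206 and 26286 in the non-treated channels. The OXA signal was the higher of the pair on each of the 4 arrays, by the least on array 1 and by the most on array 2. The groups overlapped, since the non-treated signal of array 4 lay above the OXA signal of array 1. The processed signals of both groups overlapped for all 11 probes, and they were apart for 0.379% of all tested probes with OXA higher and 0.241% with OXA lower. The signal averaged 35556 ± 12573 in OXA channels and 21658 ± 3672 in non-treated channels (SD, n = 4 each).

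Since the scanner software does not scale arrays to each other, each signal was also divided by the 75th percentile of its channel. On that scale the signal of the brightest KLF6 probe was 81.5, 188, 90.9 and 104 in OXA channels, against 73.1, 63.4, 69.1 and 70.6 in non-treated channels. The non-treated values lay close together, at 69.1 ± 4.15, and the OXA values were spread, at 116 ± 48.7 (SD, n = 4 each). On this scale the groups did not overlap for 1 of the 11 KLF4 and KLF6 probes, with OXA higher, where 0.400% of all tested probes had such a gap. Because the ratios of KLF6 had been seen when it was chosen, nothing is read from that count.

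**Figure D1:**
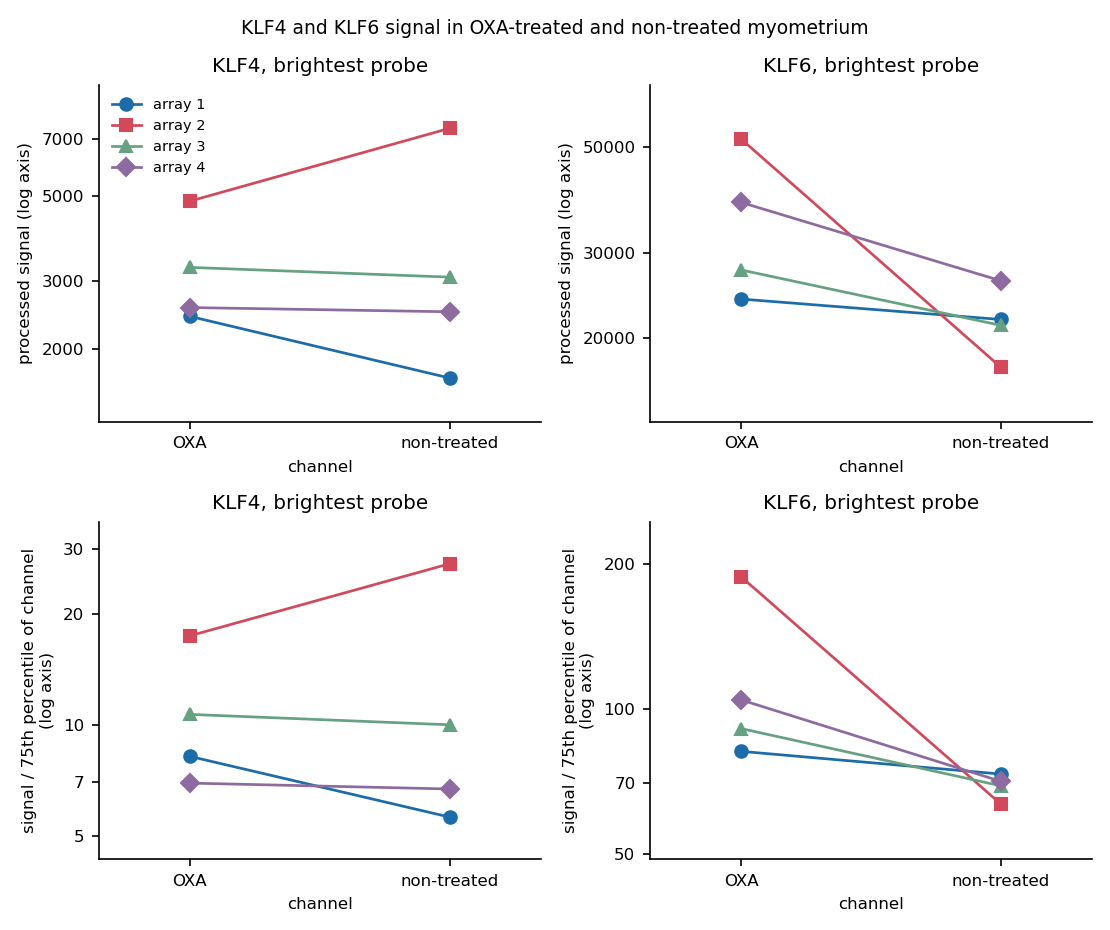
Signal of the brightest KLF4 probe (left) and the brightest KLF6 probe (right) in OXA and non-treated channels, on log axes, with a line joining both channels of an array. The top row shows the processed signal and the bottom row the signal divided by the 75th percentile of its channel. KLF6 lines go down from OXA to non-treated on all 4 arrays, while the KLF4 line of array 2 goes up.

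The log2 ratio of OXA over non-treated for this KLF6 probe was 0.14, 1.59, 0.39 and 0.55 on arrays 1 to 4, a mean of 0.67 ± 0.64 (SD, n = 4), or 1.59-fold. The ratio of array 2 was the highest of the 4, and without it the mean was 0.36 ± 0.20 (SD, n = 3). The scanner's own error of a log2 ratio at this probe was 0.20 to 0.25, so the value on array 1 was smaller than the error of a single measurement.

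The other KLF6 probes did not all behave alike. Probe A_72_P262797, the dimmest, had 749, 867, 479.7 and 1228 in OXA channels, against 476, 529, 405 and 392 in non-treated channels. Its log2 ratios of 0.66, 0.71, 0.24 and 1.65 were positive on every array, with a mean of 0.82 ± 0.59 (SD, n = 4), and the largest value came from array 4 and not from array 2. Without array 4 its mean was 0.54 ± 0.26 (SD, n = 3). Probe A_72_P217292 had 2145, 3019.5, 2103 and 3090.4 in OXA channels, against 2158, 1620.4, 1835 and 1859.7 in non-treated channels. Its log2 ratio was near 0 on array 1 and positive on the other arrays, at -0.01, 0.90, 0.20 and 0.73, with a mean of 0.45 ± 0.43 (SD, n = 4). Probe A_72_P251132 had 1867, 2418, 1772 and 2804 in OXA channels, against 2461, 2008, 1511 and 3244 in non-treated channels. It stood apart from the other 3 probes, being negative on arrays 1 and 4 and positive on arrays 2 and 3 (-0.40, 0.27, 0.23 and -0.21), with a mean of -0.03 ± 0.33 (SD, n = 4).

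Thus 2 of the 4 KLF6 probes, and 0 of the 7 KLF4 probes, had a positive ratio on all 4 arrays. Among all tested probes this held for 3.96%. A negative ratio on all 4 arrays was found for 0 of the 11, and for 3.76% of all tested probes. Nothing is read from these counts, since the pair was chosen on these ratios. The 4 KLF6 probes were closest to each other on array 3, where they ran from 0.20 to 0.39. They were farthest apart on array 4, where they ran from -0.21 to 1.65. All 4 target the same accession, and the positions they bind within the transcript were not used here.

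KLF4 was also detected in every sample, and its pattern differed from that of KLF6. With its brightest probe, A_72_P584261, the processed signal was 2427, 4836, 3253 and 2558 in the OXA channels of arrays 1 to 4, against 1676, 7485, 3069 and 2493 in the non-treated channels. On array 2 both channels were the highest of their group, and the non-treated tissue exceeded the OXA-treated tissue there. On array 1 the OXA channel was higher, and on arrays 3 and 4 the channels were nearly equal. The signal averaged 3268 ± 1106 in OXA channels and 3681 ± 2600 in non-treated channels (SD, n = 4 each), and the groups overlapped.

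With the brightest probes, the level of KLF4 varied more between arrays in non-treated tissue than that of KLF6. Divided by the 75th percentile of the channel, the highest KLF4 value was 2.51 times the lowest in OXA channels and 4.87 times the lowest in non-treated channels. For KLF6 it was 2.30 times the lowest in OXA channels and 1.15 times the lowest in non-treated channels. With the other KLF6 probes it was 1.45 to 1.84 times the lowest in non-treated channels. These spreads are descriptions of 4 arrays, and a difference between them was not tested.

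The log2 ratio of the brightest KLF4 probe was 0.53, -0.63, 0.08 and 0.04 on arrays 1 to 4, with a mean of 0.01 ± 0.48 (SD, n = 4). The scanner's error of a log2 ratio at this probe was 0.20 to 0.21, so only the values of arrays 1 and 2, which had opposite signs, were larger than it. Both arrays contributed ratios of similar size, and their opposite signs cancelled in the mean.

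All 7 KLF4 probes agreed in sign on arrays 1 and 2. On array 1 they were all positive and ran from 0.53 to 1.47, and on array 2 they were all negative and ran from -0.77 to -0.37. On array 3 they lay between -0.05 and 0.27, close to 0. Array 4 divided them by brightness. There the 4 brightest probes ran from -0.31 to 0.04 and the 3 dimmest from 0.38 to 2.41.

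The means over the 4 arrays followed that division, from -0.06 to 0.01 for the 4 brightest probes and from 0.29 to 0.61 for the 3 dimmest. Probe A_72_P672762 had the largest mean, 0.61 ± 1.29 (SD, n = 4). Its signal was 1263, 2402, 845 and 5618 in OXA channels, against 859, 3733, 779 and 1059.8 in non-treated channels. The OXA channel of array 4 stood above all its other channels and gave a log2 ratio of 2.41, and without array 4 the mean was 0.01 ± 0.60 (SD, n = 3). Without array 2 it was 1.03. That spot was the only one of the 44 KLF4 and KLF6 spots whose local background was flagged as non-uniform, while its own pixels were not flagged. Of the 44 spots, 0 were saturated, 0 were flagged as outliers themselves and 6 had a background flagged as an outlier among backgrounds. These 6 were this spot, the brightest KLF6 probe on array 1, A_72_P538303 on array 1, and A_72_P584906 on arrays 1, 2 and 4. The part of these flags in the values was not tested.

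Probe A_72_P303164 had log2 ratios of 0.66, -0.37, 0.16 and 0.69, with a mean of 0.29 ± 0.50 (SD, n = 4). This mean was 0.16, 0.51, 0.33 and 0.15 without arrays 1, 2, 3 and 4. Probe A_72_P538303, the dimmest, had 1.47, -0.57, 0.27 and 0.38, with a mean of 0.39 ± 0.84 (SD, n = 4). Its value on array 1 set 95.6 in the OXA channel against 34.6 in the non-treated channel. That non-treated spot was not well above background, and the scanner's error of that ratio was 0.53 on the log2 scale. Without array 1 the mean of this probe was 0.03, without array 2 it was 0.71, and after normexp and loess it was 0.11. The higher means of A_72_P672762 and A_72_P538303 thus depended on single arrays. That of A_72_P303164 stayed positive whichever array was left out, at 0.15 to 0.51. The 3 remaining probes, A_72_P584906, A_72_P584816 and A_72_P577783, averaged 0.01 ± 0.48, -0.06 ± 0.56 and -0.06 ± 0.56 (SD, n = 4). All 3 shared the signs of the brightest probe on arrays 1 and 2.

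**Figure D2:**
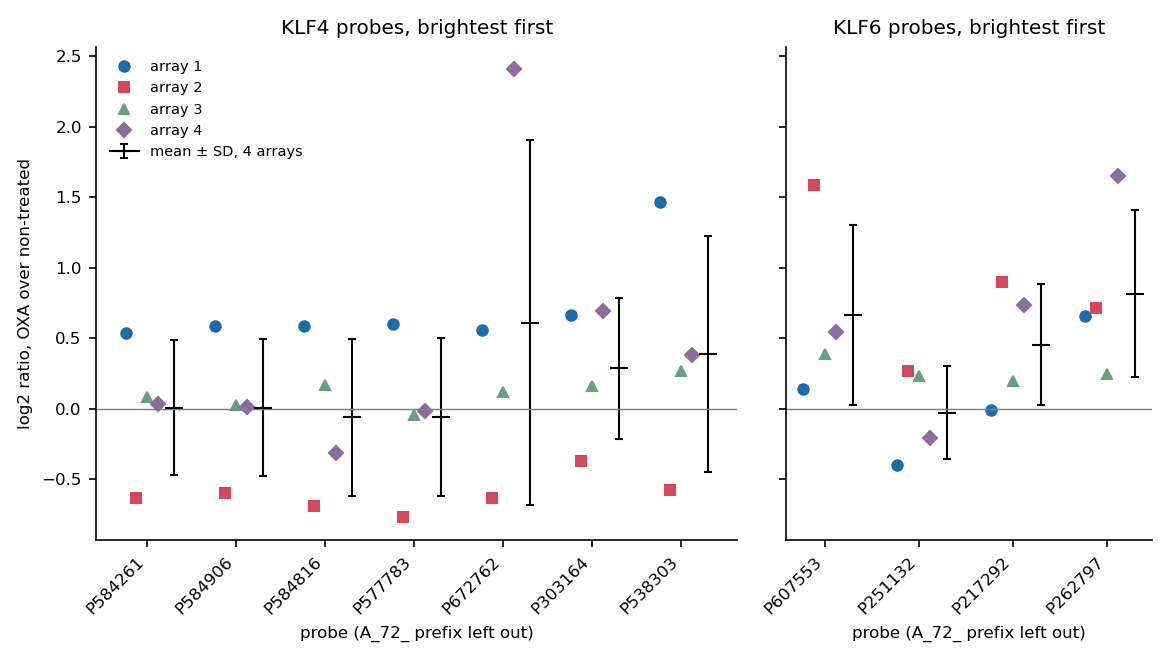
Log2 ratio of OXA over non-treated for each KLF4 probe (left) and KLF6 probe (right), by array, with the mean and SD of the 4 arrays in black and probes in order of brightness. All 7 KLF4 probes are negative on array 2 and positive on array 1, while all 4 KLF6 probes are positive on arrays 2 and 3.

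Array 2 was where both genes differed most. All KLF4 probes were negative there and all KLF6 probes positive, with medians of -0.63 over the KLF4 probes and 0.81 over the KLF6 probes. The brightest probes of both genes differed from each other by 1.16 (root mean square of the log2 differences over the 4 arrays). Among 1984 other named genes, ordered by likeness to KLF4, KLF6 came at place 1846. Ordered by likeness to KLF6, KLF4 came at place 1326.

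With the direction of array 2 turned, KLF4 was positive on average with all 7 probes, at 0.28 to 0.93, and its brightest probe averaged 0.32 ± 0.30 (SD, n = 4). In that reading 5 of the 7 KLF4 probes were positive on all 4 arrays, and 0 KLF6 probes, where 17.7% of all tested probes were. Nothing is read from that count, since the 7 probes share 1 transcript and the pair was chosen on these ratios. The brightest KLF6 probe then averaged -0.13 ± 0.99 (SD, n = 4), since its value on array 2 became the only negative one. The other KLF6 probes averaged -0.16 to 0.46.

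With Cy5 read as OXA throughout, all 4 KLF6 probes had negative means, from -0.40 to -0.06, and 6 of the 7 KLF4 probes had positive means, up to 0.48. A difference between dyes and one between treatments cannot be told apart in that reading. The mean of the brightest KLF6 probe was thus positive with the dyes as labelled and negative in both other readings. That of A_72_P262797 stayed positive with array 2 turned (0.46) and was negative with Cy5 read as OXA (-0.37). That of A_72_P217292 was near 0 with array 2 turned (0.01) and negative with Cy5 read as OXA (-0.36). With the dyes as labelled, the means of the 4 brightest KLF4 probes lay between -0.06 and 0.01.

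**Figure D3:**
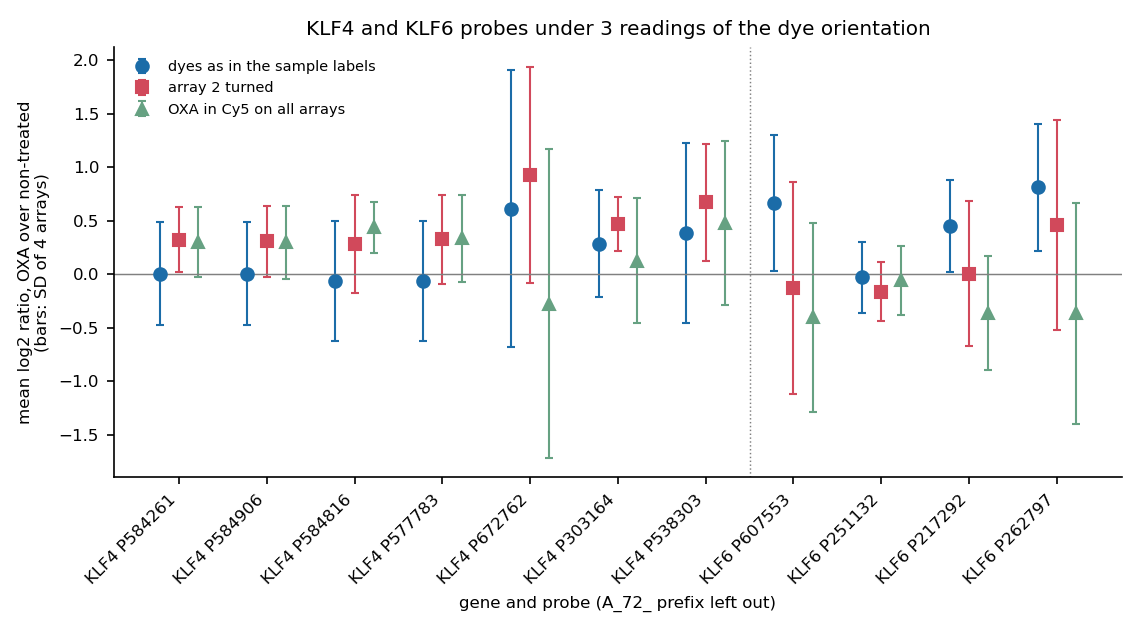
Mean log2 ratio of OXA over non-treated for each of the 11 probes (bars: SD of 4 arrays), with the dyes as labelled (circles), with array 2 turned (squares) and with Cy5 read as OXA throughout (triangles). KLF4 means lie near or above 0 in the first 2 readings, and the brightest KLF6 probe moves to negative means (-0.13 and -0.40) when the orientation is changed.

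In the model across all probes (limma, with terms for OXA and for a dye bias of each probe), 0 of 19505 probes passed an adjusted p of 0.05 for OXA, which is 0.00%, and 235 (1.20%) had an unadjusted p under 0.05. The 11 KLF4 and KLF6 probes were part of this fit, with 0 called, from which nothing is read. Without array 2 the same model called 1093 probes (5.60%), 259 higher and 834 lower, and among them was 1 KLF4 probe, A_72_P672762, the one with the value of 2.41 on array 4, and 0 KLF6 probes. With all 4 arrays the dye term called 0 of 19505 probes (0.00%), with 477, or 2.45%, at an unadjusted p under 0.05. It is computed from the same 4 ratios, so for KLF4 and KLF6 its values are a description too. For the brightest probes the dye coefficient, as Cy5 over Cy3 on the log2 scale, was 0.30 ± 0.28 (SE) for KLF4 and -0.40 ± 0.29 (SE) for KLF6.

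Of 15 further members of the Krüppel-like family, all had probes on the array and 10 were measured, and limma called 0 of them in either direction. Their means were positive for 7 and negative for 3, with a median of 0.14, against a median of -0.02 and 47.2% positive among all tested probes. With array 2 turned 7 of 10 were positive, against 51.8% of all tested probes, and with Cy5 read as OXA throughout 6 of 10. KLF1, KLF8, KLF9, KLF12 and KLF14 had 1 or 2 probes each, and 0 of these probes passed the filter on dim signals. KLF9 is known in mouse endometrium as a partner of the progesterone receptor.

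KLF2, which keeps endothelium and T cells quiescent, had log2 ratios of 0.66, -1.05, 0.37 and 0.35 with its brightest probe, a mean of 0.08 ± 0.77 (SD, n = 4). KLF13 (0.47, -0.52, 0.13 and 0.58), a regulator of chemokine expression in lymphocytes, and KLF16 (0.74, -1.19, 0.01 and 1.10) were likewise negative on array 2 alone. These 3 of 10 members shared the signs of the brightest KLF4 probe, a pattern found in 17.7% of tested probes. KLF2 had a second probe that averaged 1.25.

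KLF5, a factor of proliferating epithelium and of smooth muscle growth, had 0.11, 0.86, -0.38 and 0.12, with a mean of 0.18 ± 0.51 (SD, n = 4). Its highest value, like that of KLF6, was on array 2, and its second probe averaged -0.11. KLF10, induced by TGF-beta, had -0.35, 0.22, 0.28 and 0.48, with a mean of 0.16 ± 0.36, and its 3 tested probes averaged 0.16 to 0.85. KLF11, its close relative, had the highest mean of the 10, 0.72 ± 1.04, with 1.88 and 1.32 on arrays 1 and 4 and -0.17 and -0.16 on arrays 2 and 3. Sign changes between arrays were therefore found in each of these 3 genes.

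KLF3, a repressor that recruits CtBP, had -0.39, 0.54, -0.25 and -0.30, with a mean of -0.10 ± 0.43 (SD, n = 4). KLF17 had -1.42, 1.27, -0.20 and -0.44, with a mean of -0.20 ± 1.11 (SD, n = 4). Both were positive on array 2 alone, the reverse of KLF4. KLF7 averaged 0.12 ± 0.24 and KLF15, a glucocorticoid-induced regulator of metabolism, -0.08 ± 0.22 (SD, n = 4), each with 2 arrays of either sign. Of all 12 measured members, KLF6 was the one positive with its brightest probe on all 4 arrays, which belongs to the values it was chosen on.

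**Figure D4:**
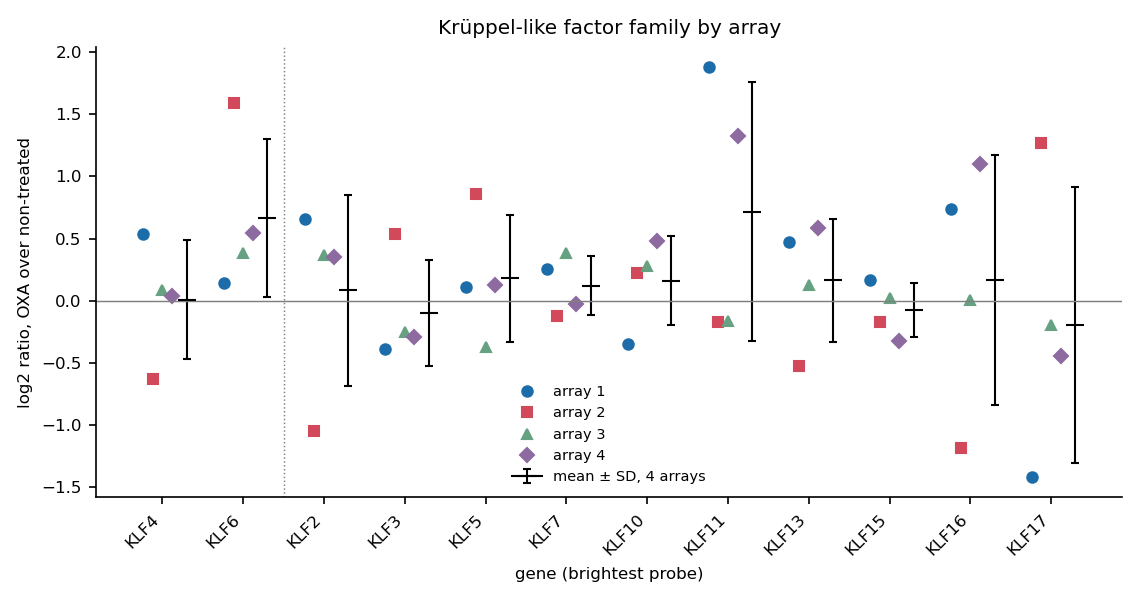
Log2 ratio of OXA over non-treated for the brightest probe of KLF4, KLF6 and 10 further Krüppel-like factors, by array, with mean and SD of the 4 arrays in black. KLF6 has no negative value, while each of the other genes has values on both sides of 0.

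Immediate early genes and other rapidly induced genes are often switched on together with KLF4 and KLF6. Of 34 such genes listed, 13 were measured, and limma called 0 in either direction. The means of 11 were positive and of 2 negative, with a median of 0.14. With array 2 turned 9 of 13 means were positive, and with Cy5 read as OXA throughout 8 of 13. On all 4 arrays 5 of the 13 were positive, against 3.96% of all tested probes, in a list chosen with these ratios known. TNFAIP3, a ubiquitin-editing enzyme that restrains NF-kappaB, had 1.03, 0.83, 0.56 and 1.54, with a mean of 0.99 ± 0.41 (SD, n = 4, limma's adjusted p = 0.998). It was the 1 gene of all these lists that limma called without array 2, where 5.6% of all tested probes were called. Nothing is read from that call, since the lists were chosen with earlier results of these data known. NFKBIA, of the same pathway, had 0.28, 0.96, 0.05 and 0.61, with its highest value on array 2, as for KLF6, and CTGF (CCN2), a matricellular protein induced by TGF-beta, had 0.64, 0.68, 0.56 and 0.01. SGK1, a kinase induced by steroids, averaged 0.34 ± 0.30 (SD, n = 4) and was -0.02 on array 2.

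Genes on which KLF4 or KLF6 are known to act were measured for 13 of 23 listed, with 0 called in either direction. Their means were positive for 9 and negative for 4, with a median of 0.13. The 4 with the smallest unadjusted p were HMOX1, haem oxygenase (0.34 ± 0.45), TGFB1 (0.33 ± 0.57), the TGF-beta coreceptor ENG (-0.36 ± 0.50) and the epithelial cadherin CDH1 (0.31 ± 1.72, SD, n = 4). HMOX1 and TGFB1 were negative on array 2 alone. ENG and CDH1 differed from this, ENG being positive on array 4 alone and CDH1 positive on arrays 2 and 4. A second TGFB1 probe averaged 1.01.

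Smooth muscle genes that KLF4 is known to repress, with their activators, were measured for 7 of 13 listed, and 0 were called. Their means were negative for 5 and positive for 2, with a median of -0.14. With Cy5 read as OXA throughout, 6 of the 7 means were positive, so their direction depends on the dye orientation too. TPM1 averaged -0.39 ± 0.71 and TPM2, the other tropomyosin, -0.23 ± 0.16 (SD, n = 4). TPM2 was negative on all 4 arrays. SMTN, smoothelin, averaged -0.27 ± 0.30 and DES, desmin, 0.20 ± 0.46 (SD, n = 4), and both changed sign between arrays. Over all tested probes of a gene, means ran from -0.43 to 0.28 for SMTN and from -0.21 to 0.20 for DES. They ran from -0.46 to 0.06 for TPM1 and from -0.30 to -0.18 for TPM2.

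Of 19 listed regulators of KLF4 and KLF6, 9 were measured and 0 were called, with 5 positive and 4 negative means and a median of 0.06. FBXO32, a ubiquitin ligase subunit, had -0.68, -0.50, -0.87 and -0.03, with a mean of -0.52 ± 0.36 (SD, n = 4). SMAD3, which carries TGF-beta signals to the nucleus, had 0.55, 0.53, 0.37 and 0.09, with a mean of 0.38 ± 0.21 (SD, n = 4). Each had a single sign on the 4 arrays, and limma's adjusted p was 0.998 for both. STAT3 averaged -0.60 ± 1.21 and HIF1A -0.31 ± 0.50 (SD, n = 4), with both signs among the arrays. The 4 tested STAT3 probes averaged -0.60 to 0.27.

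The genes most like each member were found as those with the smallest root mean square difference over the 4 log2 ratios, among 1984 other named genes. For KLF4 these were HSD17B8, BCL2L11, NIP7, PPP1R14A and KPNA2, with differences of 0.06 to 0.11. HSD17B8, the nearest, had 0.43, -0.60, 0.14 and 0.003 on arrays 1 to 4. For KLF6 they were RNF19A, FAM213A, DDX46, AGPAT5 and ITGA2, with larger differences, of 0.30 to 0.36. RNF19A had -0.27, 1.79, 0.46 and 0.17, and all 5 had their highest value on array 2. No gene came as close to KLF6 as the first 5 came to KLF4. Such differences depend on the size of the ratios. These were 0.08 and 0.04 on arrays 3 and 4 for KLF4, and reached 1.59 on array 2 for KLF6. After normexp and loess, 0 of the 5 genes were kept for KLF4 and 4 of the 5 for KLF6.

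Markers of other cell types also differed between the channels of an array. Of 8 markers of uterine epithelium listed, 4 were measured (KRT8, EPCAM, CDH1 and MUC4), with medians of -1.46, 2.06, -1.04 and 1.98 on arrays 1 to 4, and 0 of the 4 were well above background in both channels of all arrays. Their summed signal ran from 81.5 to 8058 in OXA channels and from 199 to 2052 in non-treated channels. The brightest KLF6 probe was highest on array 2 and next on array 4, the arrays on which these markers were positive. It was also positive on arrays 1 and 3, where the marker medians were negative. KRT8 differed from the epithelial median on array 1, at 0.30. Of 11 macrophage markers listed, 9 were measured, with medians of 0.63, -0.79, 1.93 and 0.73 and with 6 of the 9 well above background throughout. Their summed signal ran from 1475 to 10417 in OXA channels and from 1659 to 6052 in non-treated channels. Of the 9 macrophage markers, 6 had the signs of these medians on every array, and CD163, CD14 and MRC1 did not. The brightest KLF4 probe had these signs too, as did 17.7% of all tested probes. Its values on arrays 3 and 4 were smaller than the scanner's error, and the macrophage median was highest on array 3.

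Smooth muscle markers had medians of 0.24, -0.17, 0.40 and -0.18 over 3 genes, endothelial markers -0.40, -0.18, 0.26 and 0.59 over 4 genes, and markers of fibroblasts and stroma -0.16, -0.40, 0.06 and -0.86 over 2 genes. The part of cell type makeup in the KLF4 and KLF6 ratios was not tested.

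**Figure D5:**
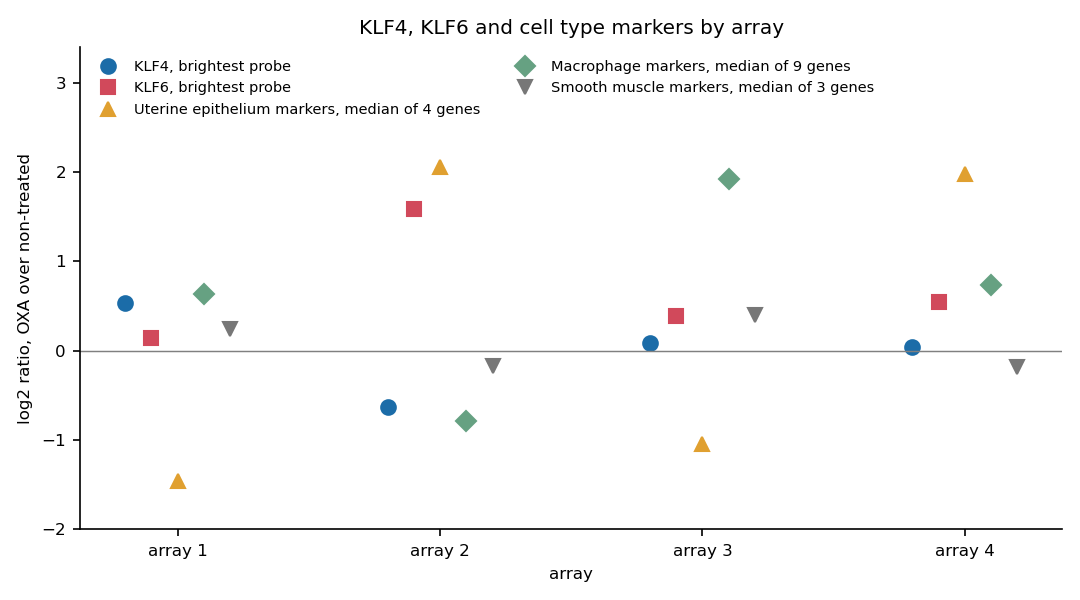
Log2 ratio of OXA over non-treated by array for the brightest probes of KLF4 and KLF6, beside the median over measured markers of uterine epithelium, macrophages and smooth muscle. The epithelial median is positive on arrays 2 and 4. The macrophage median is negative on array 2 alone, where KLF6 is highest and KLF4 negative. Single markers can differ in sign from their median.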

How the data were processed

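Per the file headers, the authors' scans were read with Agilent's Feature Extraction, version 10.7.3.1. Its deposited files give each spot's processed and median intensity on a linear scale. They also give the log10 of red (Cy5) over green (Cy3), and the error of that value, a score per the file headers. The authors' deposited value table gives log2 values. Set against the scanner values, its columns had slopes near 1 on arrays 1 and 3 and near -1 on arrays 2 and 4, so its columns run as OXA over non-treated if the dyes are as labelled. Within 0.001 on the log2 scale, 99.86% to 99.97% of tested probes matched the scanner's value, and 61.6% to 83.1% of all probes. Column medians were 0.10, 0.10, -0.19 and 0.07. Ratios come from this table and levels from the processed signals. Accessions, their versions dropped, were looked up in a RefSeq table of genes (Sscrofa11.1, names alone), which named 6700 probes of 3029 genes. A probe was tested if its OXA channel, or its non-treated channel, was well above background on 3 or more arrays (19505 probes, 1985 named genes). limma 3.58.1 in R 4.3.3 was fitted with OXA and dye terms (2 residual degrees of freedom), two-sided, with Benjamini-Hochberg adjustment over all tested probes, and was tested on simulated data. The simulated ratios were less spread than those of the KLF4 and KLF6 probes (SD 0.33 to 1.29), so that test does not cover such a spread. With 4 arrays, small differences cannot be resolved. Larger ones can be missed too, since TNFAIP3, with a mean of 0.99, had a limma adjusted p of 0.998.

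For other genes the brightest probe was used. Every measured family member was named, and up to 4 genes per other list with the smallest unadjusted p. The members and lists were chosen with earlier results of these data known. SP1 to SP9 were listed too, and 0 of these 9 genes had a named probe. CCN2 was found under its older name CTGF. Alternatives were normexp (offset 50) with loess, no background subtraction, median centring, other dye orientations, no dye term, other filters, leaving out each array, scaling to the 75th percentile, an unadjusted threshold, and averaging all probes of a gene.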

Additional observations from a re-analysis of the deposited data

Results flagged for a closer look

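In 1 of 57 sets of 4 array values (11 KLF4 and KLF6 probes and the other named genes), 1 array lay far from the rest of its set (by Dixon's ratio, whose critical value chance alone passes in about 5% of sets). KLF3 had a log2 ratio of 0.54 on array 2 and of -0.39 to -0.25 on the others. None of the 11 KLF4 and KLF6 probes had such an array.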

How the results depend on the processing

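The brightest KLF6 probe averaged 0.67 as labelled, 0.68 after normexp and loess, and 0.36 to 0.84 when 1 array was left out. It averaged -0.13 with array 2 turned and -0.40 with Cy5 read as OXA throughout, where the change of orientation itself sets the sign. The brightest KLF4 probe averaged 0.01, and -0.17 to 0.22 when 1 array was left out, lowest without array 1 and highest without array 2. The mean over all probes of a gene was 0.17 for KLF4 and 0.48 for KLF6. limma called 0 probes under every alternative with 4 arrays, and 1 to 1093 when 1 array was left out (1093 without array 2, against 1, 5 and 6 without arrays 1, 3 and 4). An unadjusted threshold gave 235. Among the KLF4 and KLF6 probes and among the list genes, 0 or 1 were called when 1 array was left out, the 1 in each case without array 2. Nothing is read from these calls. After normexp and loess, 0 of the 5 genes most like KLF4 and 4 of the 5 most like KLF6 were kept. The cause was not tested. All arrays shared 1 slide and 1 scan, so a slide block was not run. Each ratio is itself the paired comparison of both channels of an array.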
